A study of Homo sapiens with 12 samples.

Results

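Enzalutamide regions lay at 7 of the 9 prostate lineage transcription factor genes, against 58.3% of all protein-coding genes. OSU-ERb-12 regions lay at 4 (against 39.1%) and regions of the combined treatment at 3 (against 21.7%). The 9 genes were FOXA1, HOXB13, GATA2, GATA3, TRPS1, GRHL2, SPDEF, EHF and ELF3, taken by name from 20037 protein-coding genes, and a locus was the gene body plus 10 kb on either side (RefSeq, GRCh38.p14). The regions came from ATAC-seq, in which a transposase cuts and tags the DNA it can reach, in the human castration-resistant prostate cancer line 22Rv1. The 12 samples formed 4 groups of 3 biological replicates, all with the genotype label WT and each treated for 6 h. One group received vehicle, one enzalutamide (1 µM), one OSU-ERb-12 (100 nM) and one both agents, for which the labels of the samples name no dose. Enzalutamide is an antiandrogen, whereas OSU-ERb-12 binds the beta form of the oestrogen receptor. For each treatment there was 1 deposited list of regions, taken here to come from a comparison with vehicle: the enzalutamide list had 25317 regions, that of OSU-ERb-12 17931 and that of both agents, called the combination here, 6248. The lists hold positions on the hg38 build without a value per library or per region, so depth is unknown, nothing has a replicate error and no test was run. The sources used here do not say whether a listed region was more or less accessible than in vehicle. The names of all 3 contain "neg", a term left unexplained by those sources and not read as a direction here. A region may thus be a gain or a loss, and a gene without a region may still have changed.

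Luminal prostate cells are kept in their state by a small set of transcription factors. FOXA1 and the GATA factors are pioneer factors, which bind DNA in closed chromatin and open it for nuclear receptors, and HOXB13 is a prostate homeobox factor. GRHL2 and the epithelial ETS factors SPDEF, EHF and ELF3 hold the epithelial programme of cell junctions and secretion, and TRPS1 is a GATA-type repressor of epithelial cells. The lists give no expression level, so the label of the cell line was not checked against these factors.

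The region at the FOXA1 start was the widest enzalutamide region at these genes. It spanned chr14:37595401-37596100, 700 bp, where 1.34% of all enzalutamide regions were 700 bp or wider and the median was 250 bp. FOXA1 and TTC6, a neighbouring gene that runs the other way, start 380 bp apart, and this region lay 152 bp upstream of the FOXA1 start and reached into TTC6. It covered 99 of the 300 bases of the FOXA1 promoter window and 278 of the 300 bases of the TTC6 window, so it cannot be assigned to either gene alone. Both windows are shown in capitals where the enzalutamide region covered them (250 bases before to 50 after the start, 5′ to 3′, RefSeq, GRCh38.p14; FOXA1 on the minus strand, chr14:37595200-37595499, and TTC6 on the plus strand, chr14:37595379-37595678).
FOXA1: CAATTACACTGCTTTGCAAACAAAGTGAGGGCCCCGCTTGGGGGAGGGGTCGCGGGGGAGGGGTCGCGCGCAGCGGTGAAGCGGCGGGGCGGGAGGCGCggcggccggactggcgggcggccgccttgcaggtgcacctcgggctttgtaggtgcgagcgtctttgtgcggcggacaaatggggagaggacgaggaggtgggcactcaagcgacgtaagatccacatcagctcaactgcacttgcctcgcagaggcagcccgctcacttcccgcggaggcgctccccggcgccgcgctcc
TTC6: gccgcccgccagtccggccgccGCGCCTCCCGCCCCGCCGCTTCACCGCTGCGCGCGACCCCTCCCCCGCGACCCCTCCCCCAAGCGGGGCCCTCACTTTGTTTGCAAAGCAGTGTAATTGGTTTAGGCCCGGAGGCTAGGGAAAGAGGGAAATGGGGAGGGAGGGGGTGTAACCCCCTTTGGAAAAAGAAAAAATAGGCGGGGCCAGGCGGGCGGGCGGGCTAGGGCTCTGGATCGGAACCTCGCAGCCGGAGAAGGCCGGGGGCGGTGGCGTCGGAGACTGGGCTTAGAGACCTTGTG
The forkhead letters TGTTTGC, a form of the site that FOXA proteins bind, stood once in each window and were the same bases, chr14:37595478-37595484, inside the region. Of 34943 promoter windows in the table, 3.89% held these letters on either strand.

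Beyond that start, FOXA1 had 1 region of each list, all downstream of the gene. The second enzalutamide region, chr14:37588651-37588950, lay 602 bp past the gene end. The only combination region at FOXA1, chr14:37588751-37588950, lay wholly within it, over 200 bp. The OSU-ERb-12 region, chr14:37584001-37584200, lay 5352 bp past the gene end, with 4450 bases between it and the enzalutamide region. The promoter region was therefore listed for enzalutamide alone, and the downstream site for enzalutamide with or without OSU-ERb-12.

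At GATA3, a zinc finger factor of luminal epithelium, 5 enzalutamide regions gathered around the first start of the gene. A pair of 200 bp regions, chr10:8038151-8038350 and chr10:8038651-8038850, lay 6983 and 6483 bp upstream, both within the long non-coding gene LOC105376394. Another, chr10:8043451-8043750, lay 1583 bp upstream, and the next, chr10:8045551-8045900, began 218 bp inside the gene. The last, chr10:8049051-8049250, lay 604 bp before another of the 6 starts listed for GATA3. The single OSU-ERb-12 region, chr10:8069551-8069850, was in the distal part of the gene body, 20300 bases from the nearest enzalutamide region. No combination region lay in the locus, and the nearest was 226 kb away in TAF3. On the start side, a further OSU-ERb-12 region lay outside the locus, 11100 bases from the outermost enzalutamide region.

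EHF, an ETS factor of secretory epithelium, had 5 regions, all of them enzalutamide regions and all inside the annotated gene. They lay at chr11:34621401-34621600, chr11:34631351-34631650, chr11:34633601-34633800, chr11:34634351-34634550 and chr11:34639851-34640050. The middle 3 of them spanned 3200 bp on both sides of the inner start of the gene (position 34632566), at distances of 916, 1035 and 1785 bp. The nearest OSU-ERb-12 region was 15.8 kb outside the gene and the nearest combination region 174 kb. Across all protein-coding genes, 23.1% had an enzalutamide region and none of the other lists; among the 9 factor genes these were EHF and TRPS1.

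The promoter windows of GATA3 (first start, plus strand, chr10:8045083-8045382) and EHF (inner start, plus strand, chr11:34632316-34632615) are shown as examples of windows that enzalutamide regions lay close to without covering. The gap was 168 bases at GATA3 and 665 bases at EHF. Another GATA3 window, chr10:8049604-8049903, lay 353 bases from an enzalutamide region and held no forkhead letters. Capitals mark forkhead letters, TGTTTGC in GATA3 and TGTTTAC in EHF, and in EHF also AGATAA, the letters that GATA factors bind.
GATA3: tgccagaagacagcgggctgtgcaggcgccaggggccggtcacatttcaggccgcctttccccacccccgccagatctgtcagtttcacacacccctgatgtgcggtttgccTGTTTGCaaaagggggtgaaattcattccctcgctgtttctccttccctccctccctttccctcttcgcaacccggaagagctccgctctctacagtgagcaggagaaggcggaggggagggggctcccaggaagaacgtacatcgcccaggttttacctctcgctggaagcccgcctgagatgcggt
EHF: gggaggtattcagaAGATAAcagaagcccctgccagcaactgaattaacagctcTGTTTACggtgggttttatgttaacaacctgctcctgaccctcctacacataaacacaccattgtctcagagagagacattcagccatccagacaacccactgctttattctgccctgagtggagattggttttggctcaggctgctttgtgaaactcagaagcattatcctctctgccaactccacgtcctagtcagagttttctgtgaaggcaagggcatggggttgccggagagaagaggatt
TGTTTAC stood in 3.42% of all windows and AGATAA in 10.4%. A forkhead string was thus present in a window of 3 of the 6 genes that have one in the table (FOXA1, GATA3 and EHF), which together have 13 windows. At GATA3 this was 1 of 6 windows and at EHF 1 of 2. The share of all genes with a forkhead string in any window was not computed, so the number of genes has no background. A match of letters is a description of the sequence and not a bound site.

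GATA2 and ELF3 had no region of any list in their locus. GATA2 is a pioneer factor, and the nearest regions to its body were an OSU-ERb-12 region at 23.8 kb (chr3:128455451-128455650), an enzalutamide region at 41.3 kb (chr3:128534501-128534800) and a combination region at 74.5 kb. ELF3, an epithelial ETS factor, had regions just outside the window that defines a locus. An enzalutamide region (chr1:202029151-202029500) and an OSU-ERb-12 region with the same start (chr1:202029151-202029450) overlapped each other 11968 bp past the gene, whereas the farthest region counted for any of the 9 genes was 9372 bp from its gene. The nearest combination region to ELF3 was at 28.7 kb. Of genes with a locus length within 20% of that of GATA2, 48.5% had no enzalutamide region and 35.0% no region of any list. For ELF3 these shares were 55.1% and 42.6%.

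The start windows of these region-free genes are shown beside the others (GATA2, outer start, minus strand, chr3:128493152-128493451; ELF3, plus strand, chr1:202010337-202010636), with the SP/KLF letters CCGCCC in capitals.
GATA2: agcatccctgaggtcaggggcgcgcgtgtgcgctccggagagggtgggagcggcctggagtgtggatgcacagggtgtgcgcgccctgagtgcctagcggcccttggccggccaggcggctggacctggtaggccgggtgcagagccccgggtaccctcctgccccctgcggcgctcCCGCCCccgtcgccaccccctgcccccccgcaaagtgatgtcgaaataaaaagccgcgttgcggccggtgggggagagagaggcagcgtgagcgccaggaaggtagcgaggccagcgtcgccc
ELF3: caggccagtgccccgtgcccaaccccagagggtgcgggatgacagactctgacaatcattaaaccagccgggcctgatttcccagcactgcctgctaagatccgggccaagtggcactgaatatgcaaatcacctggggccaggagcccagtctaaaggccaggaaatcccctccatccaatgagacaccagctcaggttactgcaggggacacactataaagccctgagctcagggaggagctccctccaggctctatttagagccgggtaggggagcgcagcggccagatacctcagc
CCGCCC stood in 44.9% of all windows and was not particular to the region-free genes. It stood 2 times in the FOXA1 window, 5 times in the TTC6 window, once in the outer GATA2 window and 13 times over 4 of the 6 GATA3 windows. ELF3 had no match. The windows differed in base content: FOXA1 was 69.3% GC with 34 CpG dinucleotides, GATA2 72.3% with 29, GATA3 60.7% with 16, ELF3 59.0% with 7 and the inner EHF window 48.3% with 3, where the median over all windows was 58.7% and 14. The 2747 windows that an enzalutamide region overlapped had a median of 66.3% GC and 26 CpG. The GC-rich FOXA1 window was overlapped, and the GC-rich GATA2 window was not. None of the 11 letter strings searched matched in the windows of ELF3 or SPDEF. The other strings reported here were the second GATA string TGATAA (in 7.55% of all windows, and differing from the first in its opening letter), the ETS string CCGGAA (in 17.2%), the grainyhead string AACCGG (in 7.22%), the HOX13 strings CAATAAA (in 4.01%) and TTTTAC (in 10.1%) and the palindromic oestrogen response element (0.0572%). Among the 13 windows of the 6 genes, the ETS string stood once in each of 2 GATA3 windows and the second HOX13 string once in the first GATA3 window. The grainyhead and oestrogen response strings, the first HOX13 string and the second GATA string stood in none.

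HOXB13 had 3 enzalutamide regions and 1 combination region, and no OSU-ERb-12 region. One enzalutamide region, chr17:48728351-48728650, lay inside the gene, 100 bp from its higher-coordinate end. The others, chr17:48720151-48720500 and chr17:48720901-48721350, lay 4263 and 3413 bp outside the gene within the body of PRAC2, a neighbouring gene. The combination region, chr17:48720901-48721100, had the same start as the latter and lay within it. The regions in PRAC2 are nearer to PRAC2 than to HOXB13, and only the one inside HOXB13 is nearest to that gene. The nearest OSU-ERb-12 region was 18.1 kb away.

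SPDEF, an ETS factor of prostate luminal and goblet cells, was the only one of the 9 genes with 2 OSU-ERb-12 regions, and its locus held the only overlap between the single agents. The enzalutamide region chr6:34553901-34554100 and the OSU-ERb-12 region chr6:34553951-34554200 shared 150 bp inside the gene, 2229 and 2129 bp from its start. A further enzalutamide region, chr6:34554901-34555150, lay 1179 bp from the start. The remaining enzalutamide regions were at the far end, chr6:34537351-34537550, 252 bp past the gene, and chr6:34532401-34532650, 5152 bp past it and within PACSIN1. The remaining OSU-ERb-12 region, chr6:34565701-34566000, was 9372 bp upstream. The nearest combination region was 454 kb from the gene body, so the site common to the single agents was not in the combination list.

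**Figure D1:**
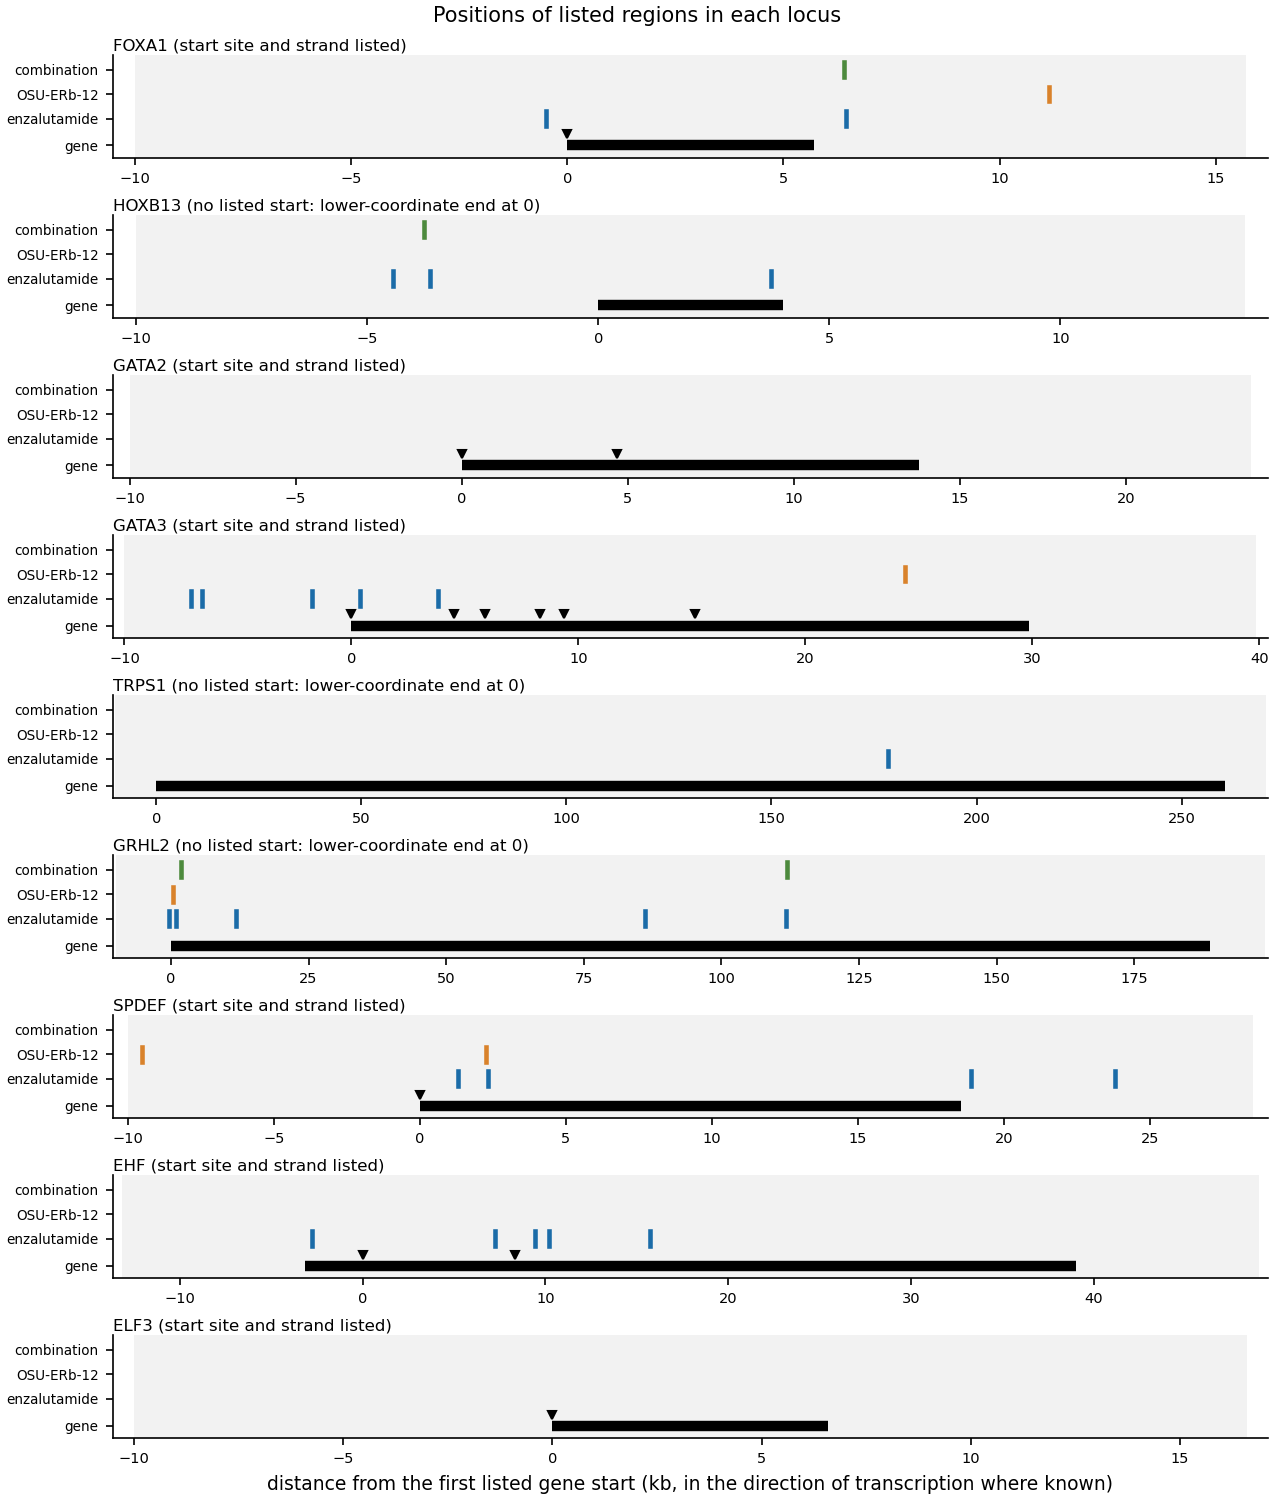
Positions of the listed regions (coloured ticks at region centres, not drawn to width) in the 9 loci, as distance in kb from the first listed start (or from the lower-coordinate end for HOXB13, TRPS1 and GRHL2); black bars are gene bodies, triangles are listed starts and grey is the gene body plus 10 kb on either side. The 5 GATA3 enzalutamide regions sit on the start side and its OSU-ERb-12 region sits in the distal part of the gene; GATA2 and ELF3 are empty.

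GRHL2, a grainyhead factor that keeps cells epithelial, and TRPS1 are the longest of the 9 genes and lie on the same chromosome. GRHL2 had 5 enzalutamide regions, 1 OSU-ERb-12 region and 2 combination regions, the most of the 9 genes. Of these 8, 4 stood in a row over 2350 bp at the lower-coordinate end of the gene without overlapping: enzalutamide at chr8:101492001-101492200, OSU-ERb-12 at chr8:101492801-101493000, enzalutamide at chr8:101493301-101493500 and the combination at chr8:101494151-101494350. The gaps between them were 600, 300 and 650 bases. The first lay 239 bp outside the gene, within the divergent transcript GRHL2-DT, and the other members of the row lay inside the gene. Each treatment was thus listed at this gene end, at different positions. Deeper in the gene, the enzalutamide region chr8:101604051-101604400 overlapped the second combination region, chr8:101604351-101604550, by 50 bp, and enzalutamide regions of 650 and 200 bp stood at chr8:101504001-101504650 and chr8:101578501-101578700.

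TRPS1 had 1 region, the enzalutamide region chr8:115586701-115587000, deep inside a gene of 260480 bp and 81975 bp from its nearer end. The number expected from its length and the enzalutamide regions on the chromosome was 2.64. For OSU-ERb-12 it was 2.70 with none found, the nearest region lying 36.8 kb outside the gene. Of the 645 genes with a locus length within 20% of that of TRPS1, 86.2% had at least 1 enzalutamide region and 28.7% had no OSU-ERb-12 region. The median of these genes was 2 enzalutamide regions and 1 OSU-ERb-12 region.

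**Figure D2:**
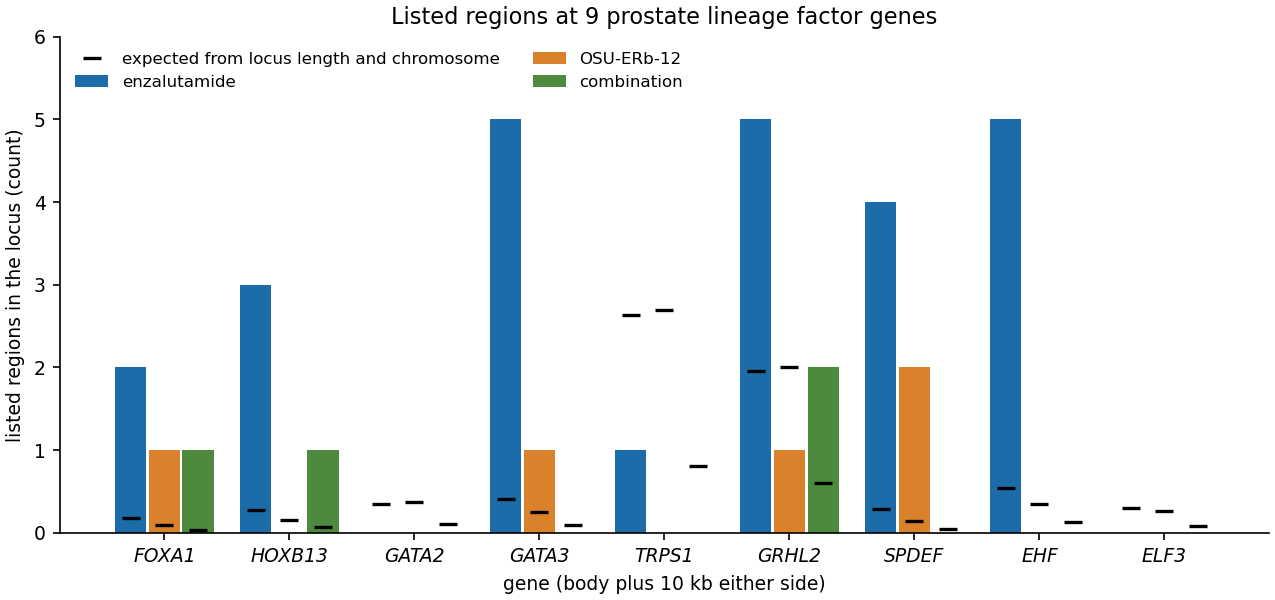
Number of listed regions in each locus (bars, 1 colour per list) with the number expected from locus length and the list's regions on that chromosome (black dashes). The dashes assume regions spread evenly along the chromosome and do not allow for regions gathering at genes. Enzalutamide bars reach 5 at GATA3, GRHL2 and EHF, and TRPS1 is the only gene with an enzalutamide region whose bar is below its dash.

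Over all 9 genes there were 25 enzalutamide, 5 OSU-ERb-12 and 4 combination regions. At least 1 region of any list lay at 7 of the 9 genes, as at 70.7% of all protein-coding genes. FOXA1 and GRHL2 had regions of all 3 lists, as did 11.0% of all genes. With 9 genes, the numbers of genes with a region are near the background and are not a result about these genes. The number of regions per gene stood farther from it: GATA3, GRHL2 and EHF had 5 enzalutamide regions and SPDEF had 4, where 3.08% of all genes had 5 or more and 6.36% had 4 or more. These thresholds were chosen after the values were seen, and the numbers depend on the regions and the flank taken. With regions wider than 200 bp alone, GATA3, GRHL2 and SPDEF had 2 enzalutamide regions each and EHF had 1. With the gene body alone, EHF had 5, GRHL2 4, and GATA3 and SPDEF 2 each.

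Per length, the 9 loci held 3.33 enzalutamide regions per 100 kb, against 1.36 over the loci of all protein-coding genes. The same densities were 0.667 against 0.816 for OSU-ERb-12 and 0.533 against 0.328 for the combination. Locus length and chromosome gave 6.95 expected enzalutamide regions, 6.35 expected OSU-ERb-12 regions and 1.97 expected combination regions. These expected numbers spread each list evenly along the chromosome and do not allow for regions gathering at genes. The densities over the loci of all protein-coding genes do not assume an even spread. As shares of lists of unequal length, the 9 loci took 0.0987% of the enzalutamide list (exact Clopper-Pearson 95% interval 0.0639 to 0.146), 0.0279% of the OSU-ERb-12 list (0.00905 to 0.0651) and 0.0640% of the combination list (0.0174 to 0.164). The intervals overlap between the 3 lists and cover the counting of regions only. Neighbouring regions are not independent, so the intervals are too narrow.

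Genes of like locus length seldom held as many enzalutamide regions as GATA3, EHF or SPDEF, which had the lowest shares of the 9 genes. The 9 genes were chosen with earlier results of these data known. At least as many regions as at GATA3 were found in 1.05% of 3605 genes, as at EHF in 1.19% of 3108 and as at SPDEF in 2.51% of 4416. For HOXB13 the share was 6.11%, for GRHL2 7.70% and for FOXA1 16.8%, and for TRPS1 it was 86.2%. For OSU-ERb-12 the lowest share was that of SPDEF, 8.49%, followed by FOXA1 with 24.4%, GATA3 with 37.8% and GRHL2 with 64.6%. Among combination regions the shares were 8.53% at GRHL2, 14.1% at HOXB13 and 14.5% at FOXA1. These shares describe the lists and do not allow for how accessible a locus is in these cells. They also count neighbouring regions separately. With regions within 1 kb merged, GATA3, EHF and SPDEF had 4, 4 and 3 enzalutamide regions, for which no share was computed.

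**Figure D3:**
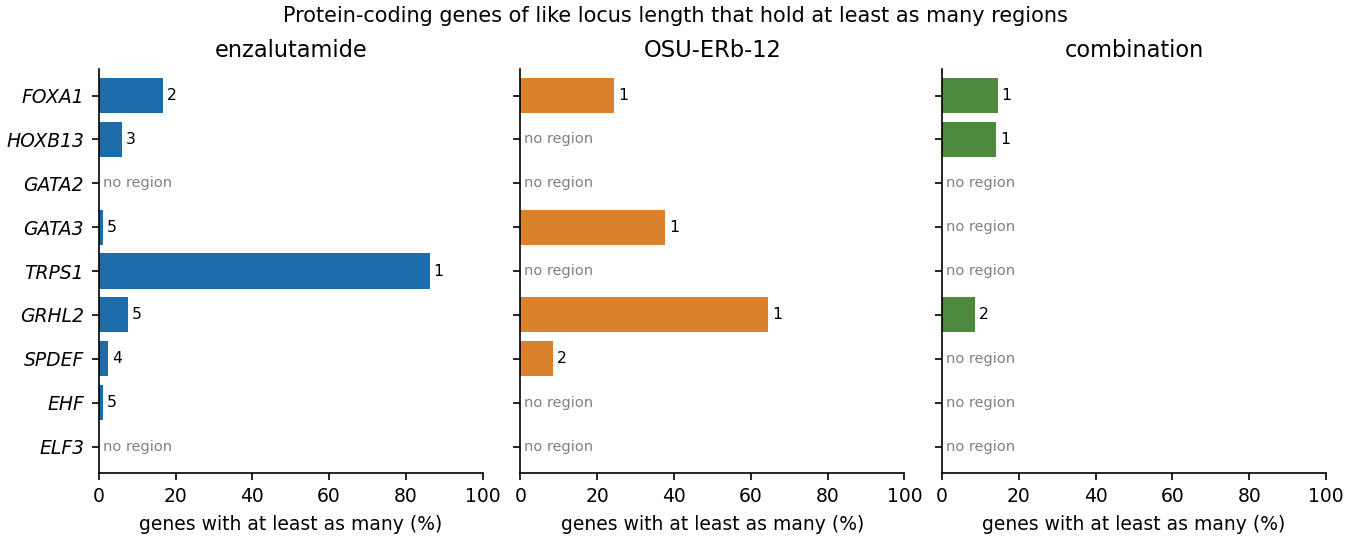
Share of protein-coding genes with a locus length within 20% of the named gene that hold at least as many regions (bars, in percent), with the gene's own number of regions at the bar's end. For enzalutamide, GATA3, EHF and SPDEF have bars under 3% and TRPS1 has 86.2%.

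Enzalutamide regions overlapped 3 combination regions and 1 OSU-ERb-12 region at the 9 genes, and no combination region overlapped an OSU-ERb-12 region. With the gene body alone the first 2 numbers were 1 and 1, with regions wider than 200 bp 0 and 0, and with 50 kb on either side 4 and 3, so no order of sharing is read from them. Of the 4 combination regions, 3 overlapped an enzalutamide region by 1 bp or more, at FOXA1, HOXB13 and GRHL2 (75%, exact interval 19.4 to 99.4, against 16.3% of the whole combination list). None of the 4 overlapped an OSU-ERb-12 region (interval 0 to 60.2, against 12.7%). These intervals treat the 4 regions as independent, which was not tested, and the overlap at GRHL2 was 50 bp. FOXA1, HOXB13 and GRHL2 held 2, 3 and 5 enzalutamide regions, for which the share of the whole list does not allow. No difference from the whole list is therefore read from them. The combination region that overlapped neither list was in the row at the lower-coordinate end of GRHL2, 650 bases from the nearest enzalutamide region. Read from the other side, 3 of the 25 enzalutamide regions overlapped a combination region (12%, against 4.02% of the list) and 1 overlapped an OSU-ERb-12 region (4.0%, against 6.17%). Of the 5 OSU-ERb-12 regions, 1 overlapped an enzalutamide region (20.0%, against 8.72%) and none a combination region (against 4.43%). The lists may share their vehicle libraries, so an overlap between them is a description.

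**Figure D4:**
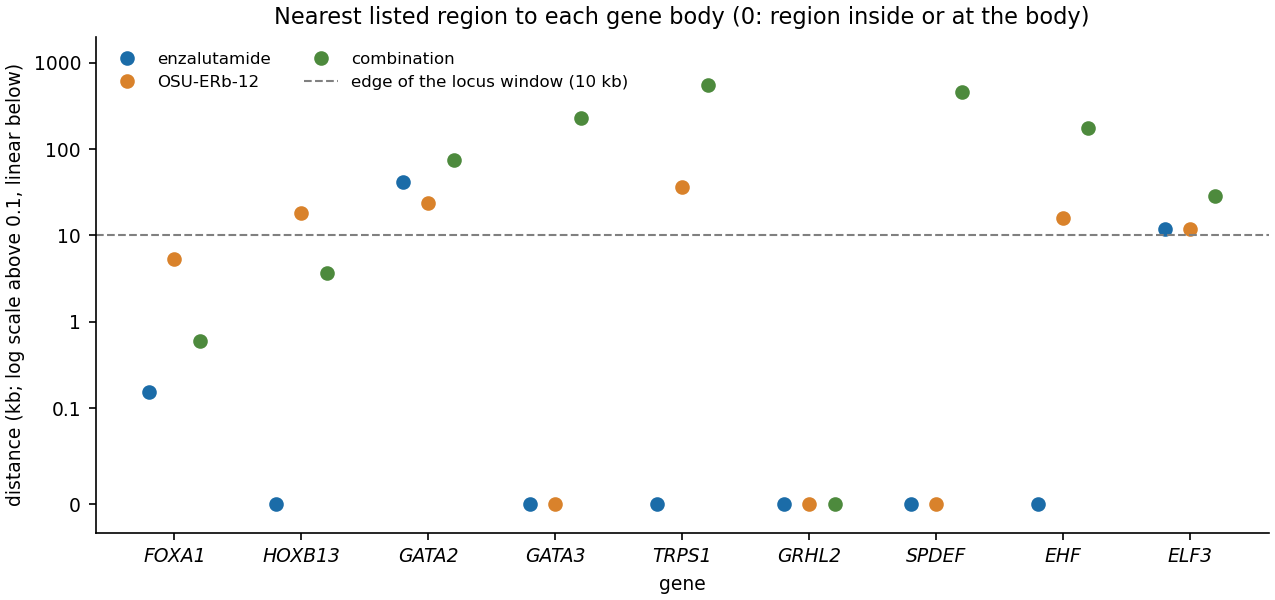
Distance from each gene body to the nearest region of each list (points, in kb; the axis is logarithmic above 0.1 kb and linear below), with 0 for a region that overlaps the body. Enzalutamide regions overlap the bodies of 6 genes, and the nearest combination region is more than 100 kb from GATA3, TRPS1, SPDEF and EHF.

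Within 1 kb of a start of its own gene lay 7 of the 25 enzalutamide regions, 1 of the 5 OSU-ERb-12 regions and none of the 4 combination regions. These were 28.0%, 20.0% and 0%, against 23.0%, 7.07% and 15.0% of the whole lists near a start of any protein-coding gene. For HOXB13, GRHL2 and TRPS1 both gene ends stood in for the start. For the other genes only listed starts counted. The EHF region chr11:34621401-34621600 was therefore not counted: it lay 308 bp inside the annotated 5′ end of the gene but 2657 bp from the nearest listed start. The 7 enzalutamide regions were 2 each at GATA3 and GRHL2 and 1 each at FOXA1, HOXB13 and EHF. The OSU-ERb-12 region was that of the GRHL2 row. The exact intervals were 12.1 to 49.4% for enzalutamide, 0.505 to 71.6% for OSU-ERb-12 and 0 to 60.2% for the combination. Each interval held the background share of its list. The regions are few and neighbouring ones are not independent, so the intervals decide nothing. No result about these genes is read from these shares. The background also differs in kind, as it counts regions anywhere in the list and the starts of any protein-coding gene. The number near a start depends on the window: within 5 kb lay 15 of the 25 enzalutamide, 2 of the 5 OSU-ERb-12 and 2 of the 4 combination regions. In width, 44.0% of the 25 enzalutamide regions were 300 bp or wider, against 37.0% of the list. Of the 5 OSU-ERb-12 regions 2 were (40.0%, against 14.8%), and their median was 250 bp, against 200 bp. All 4 combination regions were 200 bp wide, as were 68.0% of that list.

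Relatives of the 9 genes held a median of 1 enzalutamide region, as did all protein-coding genes, against 3 at the 9 genes. Of 24 other FOXA, HOX13, GATA, grainyhead and ETS genes, enzalutamide regions lay at 20 (83.3%), OSU-ERb-12 regions at 14 (58.3%) and combination regions at 9 (37.5%). The shares were 77.8%, 44.4% and 33.3% for the 9 genes and 58.3%, 39.1% and 21.7% for all protein-coding genes. In each list the share of the relatives was above that of the 9 genes, a small set. No relative had more than 3 enzalutamide regions, and the density was 1.74 per 100 kb, against 3.33 for the 9 genes. For OSU-ERb-12 the density was 1.42 per 100 kb, above the 0.667 of the 9 genes. The relatives with the most regions were HOXC13 (2 enzalutamide, 2 OSU-ERb-12 and 1 combination region), GATA5 (2, 3 and 0), GATA4 (2, 2 and 1) and ETV1, an ETS oncogene of prostate cancer (3, 2 and 0).

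Of 32 other epithelial and prostate factor genes, enzalutamide regions lay at 28 (87.5%), OSU-ERb-12 regions at 16 (50.0%) and combination regions at 7 (21.9%). The shares of all protein-coding genes were 58.3%, 39.1% and 21.7%. The enzalutamide density of the 32 genes was 2.42 per 100 kb. FOXP1, a forkhead factor gene with a locus of 649 kb, had 14 enzalutamide, 9 OSU-ERb-12 and 2 combination regions. NFIB, a nuclear factor I gene, had 14, 2 and 1. TBX3, a T-box factor, had 8 enzalutamide and 2 OSU-ERb-12 regions in a locus of 33.9 kb. High numbers of enzalutamide regions were thus not particular to the 9 genes, though the median of the 32 genes was 1.

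Genes with the most similar numbers of regions were found by the summed difference of the 3 counts among genes of like length. GRHL2 (5 enzalutamide, 1 OSU-ERb-12, 2 combination) had 1 gene with the same counts among 961, PRKDC, followed by TRIM2 with a difference of 1. EHF (5, 0, 0) had 1 among 3108, CSNK1G2, followed by AGT with a difference of 1. The same counts as SPDEF (4, 2, 0) were found at 8 genes, of which ABCB8 and TIMM44 were nearest in length, and those of GATA3 (5, 1, 0) at 10 genes, of which CGN and PPM1G were nearest. HOXB13 (3, 0, 1) shared its counts with 40 genes, led by DDIT3 and YPEL3, and FOXA1 (2, 1, 1) with 52, led by CCDC106 and PHB2. The likeness rests on 3 small counts per gene.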

How the data were processed

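ATAC-seq was done on 22Rv1 cells, and per the labels' protocols ATACSeqQC split the reads so that nucleosome-free ones could be used. Per the submitters' processing notes, FastQC and Trimmomatic were among the tools and hg38 was the build. The aligner, peak caller, threshold, transposase offset, test and pooling of replicates decide which regions are listed and are not stated by any source used here. Each deposited list gives region positions, and its deposited score is 0 in every row. Lists were matched to treatments by the prefix shared with sample titles (WT for OSU-ERb-12, which the labels do not explain).

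Loci came from RefSeq (GRCh38.p14, 24 chromosomes, protein-coding genes), with coordinates 1-based. Starts and strand came from the RefSeq promoter table for 6 of the 9 genes and 15843 of all genes, and both gene ends were used for the other 4194. Regions were shared at 1 bp of overlap. Expected numbers are locus length times regions per base of the chromosome. Python 3.11.15, pandas 2.3.3 and scipy 1.17.1 were used, and the counting was tested on simulated data.

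The genes and lists were chosen with earlier results of these data known. Text names all 9 genes, the 4 genes with the most regions in each of 2 lists of related factors, 2 genes of most similar counts for each of the 9 with 4 or more regions, and overlapped neighbours; not every gene the rule takes is reported here.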

Additional observations from a re-analysis of the deposited data

How the results depend on the processing

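Alternatives were other flanks, wider regions alone, merging, nearest gene, other overlap rules and a 5 kb start window. Of 81 values over the 9 genes, 57 stayed within 1.5 times, and a 0 that stayed 0 was counted among them. A 0 cannot rise where the flank is shorter or fewer regions are taken. With the gene body alone there were 15 enzalutamide, 3 OSU-ERb-12 and 2 combination regions, 1 gene with a combination region and 1 combination and 1 OSU-ERb-12 region shared with enzalutamide. With 5 kb either side there were 3 OSU-ERb-12 regions. With 50 kb there were 38 enzalutamide and 19 OSU-ERb-12 regions, and all 9 genes had an OSU-ERb-12 region. Shares over all genes were computed for the 10 kb flank alone, so numbers of genes at other flanks have no background. With 50 kb, 1 combination and 3 OSU-ERb-12 regions were shared with OSU-ERb-12 and enzalutamide, respectively. ELF3 then had 5 enzalutamide, 3 OSU-ERb-12 and 1 combination region and GATA2 1, 2 and 0. Regions wider than 200 bp left 13 enzalutamide regions (4 near a start), 3 OSU-ERb-12 regions at 2 genes (0 near a start) and 0 combination regions at 0 genes, so 0 were shared with enzalutamide, as were 0 OSU-ERb-12 regions. Counting regions within 500 bp as shared gave 2 OSU-ERb-12 regions shared with enzalutamide. Within 5 kb of a start lay 15 enzalutamide, 2 OSU-ERb-12 and 2 combination regions. The settings differ in the DNA, the regions or the distance and overlap rules taken. Why each value shifted was not tested.

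No paired analysis was possible because the lists hold no value per library; for the same reason no replicate was left out and no stricter threshold was applied.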
